A study of Mus musculus with 13 samples.

Results

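The subunits of the mitochondrial oxidative phosphorylation system were examined in samples labelled tip, stalk and nonvascular retina from the mouse retina. Members were the non-control probes whose gene symbol marks a subunit of the complexes I to V by its name: Nduf followed by a, b, c, s or v and a digit, Cox4 to Cox8, Uqcr, Sdha to Sdhd, and Atp5. The rule gave 79 genes on 99 probes, of 33542 genes and 41174 probes on the array. By complex, 32 genes belong to complex I, 4 to complex II, 8 to complex III, 17 to complex IV and 18 to complex V. The complex V group includes Dmac2l, which matched through its older name. Each of the 79 genes was well above background in the sample channel on all 13 arrays, so none was lost to the filter on dim probes, and 65 of them were among the brightest 10% of the 32017 genes tested.

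The study set out to find genes that distinguish retinal tip cells, the endothelial cells that lead a growing vessel sprout, from the stalk cells that follow them. RNA labelled tip came from 6 samples, RNA labelled stalk from 4, and RNA labelled nonvascular retina, the control, from 3. Each sample was labelled with Cy5 and hybridised to its own 2-colour array against Universal Mouse Reference RNA, a commercial pool labelled with Cy3, with no dye swap. Strain, age, any genotype or treatment, and the way the cells were collected are not given in the labels, and arrays are not tied to animals, so the p-values speak of variation among these arrays alone, part of which may be technical. All values are log2 ratios of sample over reference, differences are in log2 units, and a gene was called where limma's adjusted p was under 0.05.

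Oxidative phosphorylation makes most of the ATP of resting cells. Complexes I and II pass electrons from NADH and succinate to ubiquinone, complex III passes them to cytochrome c, complex IV passes them to oxygen, and complex V uses the resulting proton gradient to make ATP. Growing endothelial cells are known to rely largely on glycolysis, whereas retinal neurons are among the most oxygen-demanding cells of the body. The mitochondrial genome encodes some core subunits, which are not members here.

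The promoters of nuclear respiratory genes are known for binding sites of NRF1, of ETS factors such as GABP, and of YY1. A RefSeq window (GRCm38.p6) from 250 bases before to 50 bases after the most upstream start was found for 65 of the 79 genes, and both strands were searched. The core of the NRF1 motif, spelled GCGCA, then any base, then GCGC, was in 14 of these windows (21.5%), against 4.82% of 27025 windows of all genes. The ETS letters CCGGAAG were in 15 (23.1%), against 9.14% of all windows. The YY1 letters AAGATGGC were in 9 (13.8%), against 2.87% of all windows, and the TATA box letters TATAAA were in 8 (12.3%), against 14.2%. Among the 17492 windows of protein-coding genes the shares were 6.66% for NRF1, 11.9% for ETS, 3.21% for YY1 and 13.3% for TATA. At least 1 of the NRF1, ETS and YY1 strings was present in 33 of the 65 windows. These are matches of letters, not measured binding, and no test was made. Stretches just upstream of the start are printed for Ndufa5, which fell in tip relative to stalk, and for the complex II genes Sdha and Sdhd. The differences of Sdha and Sdhd against nonvascular retina had opposite signs, but only that of Sdha in stalk was called. These stretches all lie on the minus strand and are written 5′ to 3′ along the gene, with the NRF1 and ETS letters, on either strand, in capitals. The Ndufa5 stretch is chr6:24527691-24527790, the Sdha stretch chr13:74350241-74350360 and the Sdhd stretch chr9:50603850-50603949.
Ndufa5: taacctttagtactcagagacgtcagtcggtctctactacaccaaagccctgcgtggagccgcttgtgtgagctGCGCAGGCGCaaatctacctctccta
Sdha: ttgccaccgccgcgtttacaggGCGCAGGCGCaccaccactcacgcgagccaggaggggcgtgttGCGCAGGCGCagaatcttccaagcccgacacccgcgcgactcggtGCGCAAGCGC
Sdhd: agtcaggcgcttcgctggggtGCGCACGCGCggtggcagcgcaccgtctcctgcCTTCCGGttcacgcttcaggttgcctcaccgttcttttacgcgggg
The Sdha stretch holds 3 copies of the NRF1 letters, and the Ndufa5 and Sdhd stretches hold 1 each. The Sdhd stretch also holds 1 copy of the ETS letters, on the opposite strand.

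The labelled tissues were checked against marker genes. The mean log2 ratio over 10 endothelial markers was 2.76 to 3.08 on tip arrays, 3.29 to 3.45 on stalk arrays and 0.475 to 0.818 on nonvascular arrays. Over 14 pericyte and smooth muscle markers it was 0.489 to 0.743 in tip, 1.16 to 1.35 in stalk and −1.15 to −1.01 in nonvascular retina. Over 10 ganglion cell markers it was 0.33 to 0.716 in tip, −0.223 to 0.566 in stalk and 2.53 to 2.82 in nonvascular retina. Nonvascular replicate 3 stood apart from its group: its mean over 8 markers of astrocytes and Mueller glia was 2.41, against 1.21 and 1.16 in replicates 1 and 2 and 2.36 to 2.86 on tip and stalk arrays. The median sample signal over background was 105 to 292 in tip, 98.1 to 141 in stalk and 166 to 282 in nonvascular arrays, and arrays were scanned group by group, so group and order of scanning cannot be told apart.

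On every tip and stalk array the median log2 ratio over the 79 genes was below that of every nonvascular array. It was 0.07, 0.16 and 0.26 (lowest, median and highest) on tip arrays, 0.39, 0.25, 0.39 and 0.19 on the 4 stalk arrays and 0.52, 0.44 and 0.62 on the 3 nonvascular arrays. Tip and stalk arrays overlapped. In bulk RNA such as this, fewer cells of a type and less RNA per cell cannot be told apart.

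**Figure D1:**
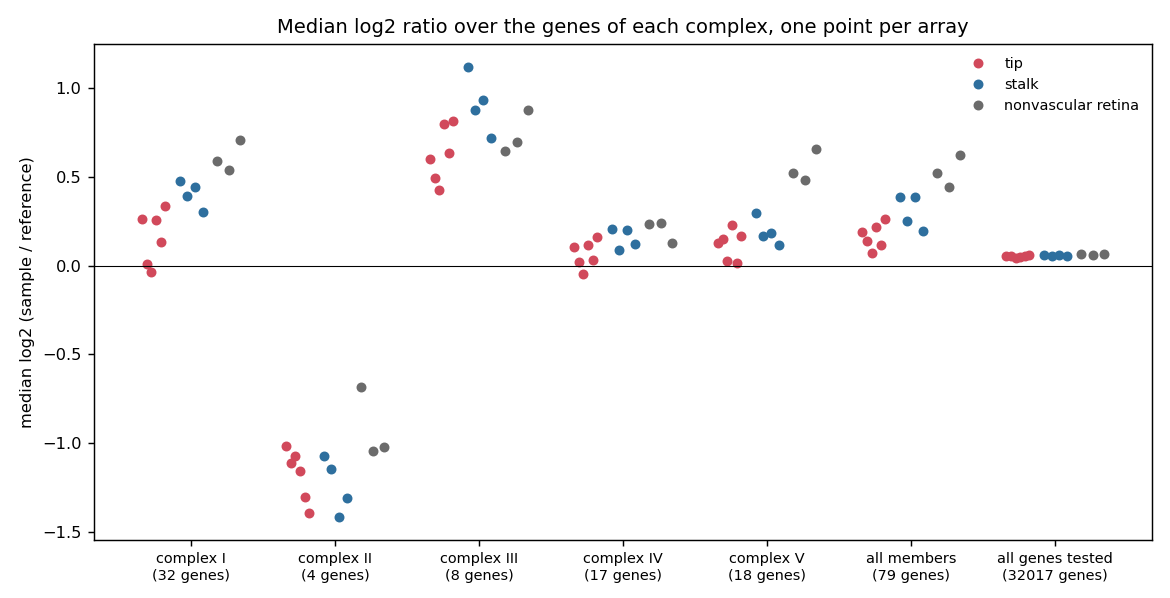
Median log2 ratio of sample over reference (vertical axis) over the genes of each complex, over the 79 subunits and over the 32017 genes tested, with 1 point per array in tip (red), stalk (blue) and nonvascular retina (grey). Over all subunits the nonvascular points (0.44 to 0.62) lie above the tip points (0.07 to 0.26) and stalk points (0.19 to 0.39), whereas for complex III the stalk points reach highest (0.72 to 1.12).

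The comparison of tip with stalk asks whether the leading cells differ from the following ones in the respiratory chain. Few subunits passed the test, and those that did were lower in tip. Ndufb3 and Ndufa5, accessory subunits of complex I, and Cox4i1, the ubiquitous form of the regulatory subunit 4 of complex IV, fell by 0.44, 0.46 and 0.35, which is 1.36-fold, 1.38-fold and 1.27-fold lower. None of the 79 genes rose (limma, with 4 higher at an unadjusted p under 0.05). These 3 calls are 3.8% of the members, against 1.32% of all 32017 genes called lower and 1.47% called higher, and against 3% lower and 3.78% higher in the brightest 10% of genes (3201 genes). The median difference over the 79 genes was −0.17, against 0.003 over all genes, and 59 of the 79 differences were below 0, against 49% of all genes.

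Ndufb3 stood at 0.24, 0.49 and 0.68 (lowest, median and highest) on the 6 tip arrays, against 1.00, 0.91, 1.00 and 0.82 on the 4 stalk arrays. All tip arrays lay below all stalk arrays. The difference was −0.44 ± 0.08 (SE, adjusted p = 0.0102). Ndufa5 stood at 0.01, 0.21 and 0.53 on tip arrays, against 1.01, 0.72, 0.60 and 0.55 on stalk arrays. The highest tip array came within 0.02 of the lowest stalk array without reaching it, and the difference was −0.46 ± 0.11 (adjusted p = 0.0426). Cox4i1 stood at −0.72, −0.53 and −0.35 on tip arrays, against −0.10, −0.24, −0.15 and −0.21 on stalk arrays. Here too the groups did not overlap, with a difference of −0.35 ± 0.07 (adjusted p = 0.0183).

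**Figure D2:**
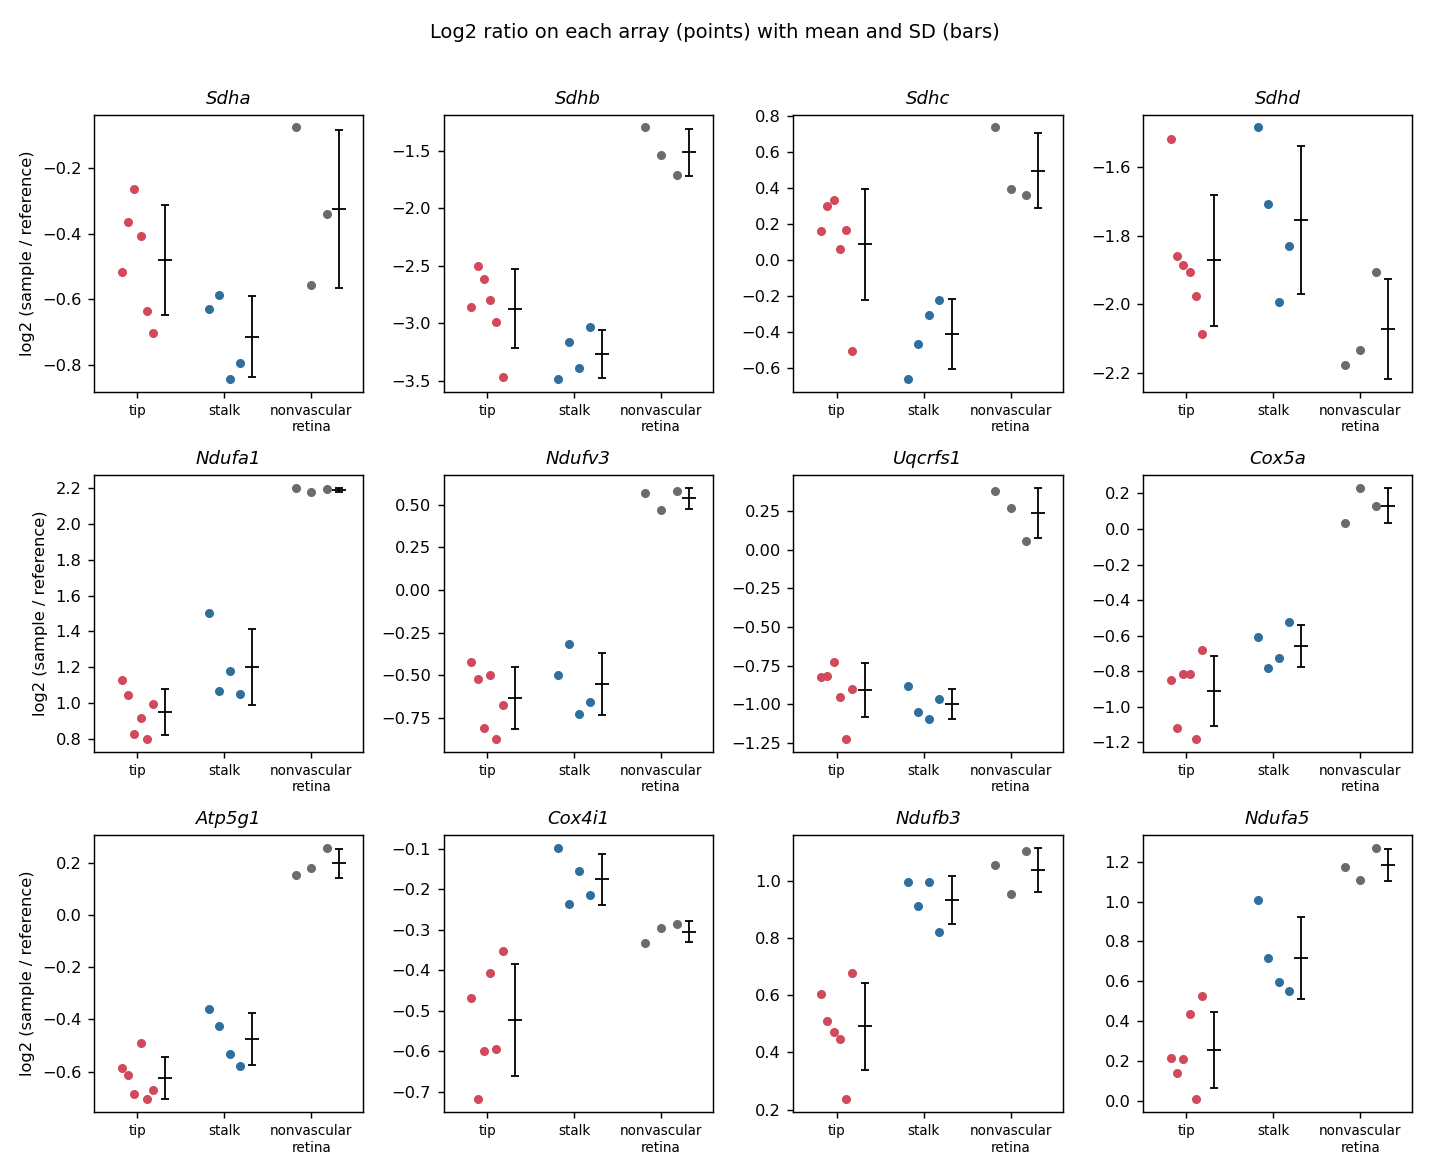
Log2 ratio of sample over reference (vertical axes, each on its own scale) of 12 subunit genes on each array, with the mean and SD beside the points, in tip, stalk and nonvascular retina. For Ndufb3, Ndufa5 and Cox4i1 all tip points lie below all stalk points, and for Sdhb, Ndufa1, Ndufv3, Uqcrfs1, Cox5a and Atp5g1 all tip and stalk points lie below all nonvascular points.

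In 9 of the 79 genes every tip array was below every stalk array and in 0 every tip array was above, against 2.75% and 2.73% of all genes. Besides the 3 called genes these were Cox7a1, Cox7b, Cox7b2, Ndufa3, Ndufa8 and Uqcrh, of which Ndufa3 and Uqcrh are named because they complete this count, after their values were seen. Ndufa8, an accessory subunit of complex I, had the largest absolute difference of all members, −0.56 ± 0.14 (adjusted p = 0.0571), with tip arrays at −0.47, 0.10 and 0.40 and stalk arrays at 0.64, 0.46, 0.66 and 0.44. Cox7a1, the heart and muscle form of subunit 7a, differed by −0.48 ± 0.13 (adjusted p = 0.07), with tip arrays at −1.61, −1.23 and −1.12 and stalk arrays at −0.38, −0.71, −1.09 and −0.98. Neither passed the test, nor did Cox7b (−0.42 ± 0.12, adjusted p = 0.0804), Uqcr10 of complex III (−0.48 ± 0.16, adjusted p = 0.138) or Atp5e, the epsilon subunit of complex V (−0.41 ± 0.20, adjusted p = 0.298).

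Complex II had the opposite sign, without a call. Sdhc, a membrane anchor of succinate dehydrogenase, stood at −0.51, 0.17 and 0.34 on tip arrays, against −0.66, −0.46, −0.30 and −0.22 on stalk arrays. All tip arrays except tip replicate 6 were above all stalk arrays, and the difference was 0.50 ± 0.15 (adjusted p = 0.107). The iron-sulfur subunit Sdhb differed by 0.40 ± 0.17 (adjusted p = 0.235) and the flavoprotein subunit Sdha by 0.23 ± 0.11 (adjusted p = 0.268), whereas the second anchor Sdhd differed by −0.12 ± 0.11. The other Sdha probe, fitted on its own, differed by 0.06 ± 0.09 (adjusted p = 0.795). Without tip replicate 6, Sdhc (0.617, adjusted p = 0.00824) and Sdhb (0.515, adjusted p = 0.038) were called higher in tip. Atp5a1, the alpha subunit of complex V, differed by 0.26 ± 0.08 (adjusted p = 0.128, with values on 5 of 6 tip arrays and 2 of 3 nonvascular arrays) and was called without tip replicate 4 (0.322, adjusted p = 0.0476). The other Atp5a1 probe, fitted on its own, had the opposite sign (−0.05 ± 0.07, adjusted p = 0.744). By complex the median difference was −0.21 over complex I, 0.31 over complex II, −0.27 over complex III, −0.20 over complex IV and −0.10 over complex V.

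The calls between tip and stalk depended on single arrays and on the treatment of array brightness. With brightness in the model 0 members were called, with Cox4i1 at an adjusted p of 0.156, Ndufa5 at 0.215 and Ndufb3 at 0.0533, and the median signal over background was 105 to 292 on tip arrays and 98.1 to 141 on stalk arrays. Leaving out stalk replicate 1 or stalk replicate 3 left 1 gene lower in tip, leaving out tip replicate 6 gave 5 lower and 2 higher, and leaving out tip replicate 4 gave 1 higher. Ndufa5 lost its call without tip replicates 1, 2, 3 or 5, stalk replicates 1, 2 or 3, or nonvascular replicates 1 or 2 (adjusted p between 0.0572 and 0.121), and Cox4i1 without stalk replicates 1 (0.0656) or 3 (0.0568). Cox7b was called without nonvascular replicates 1 (0.0319) or 3 (0.034), and Ndufa8 without tip replicate 6 (−0.649, adjusted p = 0.0153). With median centring in place of loess, Ndufb3 (adjusted p = 0.185, range over the alternatives 0.00455 to 0.185), Cox4i1 (0.14, range 0.00738 to 0.156) and Ndufa5 (0.122, range 0.0166 to 0.215) all lost their call, and the split over all genes moved to 49 higher and 203 lower, against 471 and 422. Markers of pericytes moved with this comparison: 9 of 14 were lower in tip and 0 higher, as were 3 of 10 endothelial markers, and the part of either in the differences was not tested.

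Against nonvascular retina, the comparison of tip asks how the vessel samples differ from the tissue around them. Subunits of every complex were lower in tip, 43 of 79 genes in all, and 1 was higher. Ndufa1, a small subunit needed to build complex I, was 2.36-fold lower, Uqcrfs1, the Rieske iron-sulfur protein of complex III, 2.21-fold lower, Cox5a of complex IV 2.06-fold lower and Sdhb 2.57-fold lower. The only gene that rose was Cox6a2, the heart and muscle form of subunit 6a, by 1.39-fold. The 43 calls are 54.4% of the members, against 16.8% of all genes called lower and 11.1% called higher. Among the brightest 10% of genes, where most members lie, 26.4% were lower and 28.8% higher. The median difference over the members was −0.37, against −0.011 over all genes, and 69 of 79 differences were below 0, against 52.9% of all genes. In 43 genes all tip arrays lay below all nonvascular arrays and in 1 all lay above, against 16.8% and 11% of all genes.

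The comparison of stalk with the same nonvascular arrays gave 33 of 79 genes lower, 41.8%, against 18.6% of all genes lower and 30.1% of the brightest 10%. It gave 2 genes higher, Cox6a2 and the small complex III subunit Uqcr10, against 11.2% of all genes and 29.1% of the brightest 10%. The median difference was −0.24, against −0.003 over all genes, and 54 of 79 differences were below 0, against 50.8% of all genes. In 35 genes all stalk arrays lay below all nonvascular arrays and in 7 all lay above, against 21.3% and 16% of all genes. Among these 7, Ndufa13 had a value on only 1 nonvascular array and Ndufa9 on 2, and among the 35, Atp5a1 had a value on 2 nonvascular arrays and Ndufb2 on 3 stalk arrays. Ndufa13, Ndufa9 and Ndufb2 are named for these missing values, after their values were seen. Both comparisons share the 3 nonvascular arrays, so their values are given side by side and are not independent of each other. With the sample channel alone the split in stalk was 8 higher and 23 lower, against 2 and 33.

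**Figure D3:**
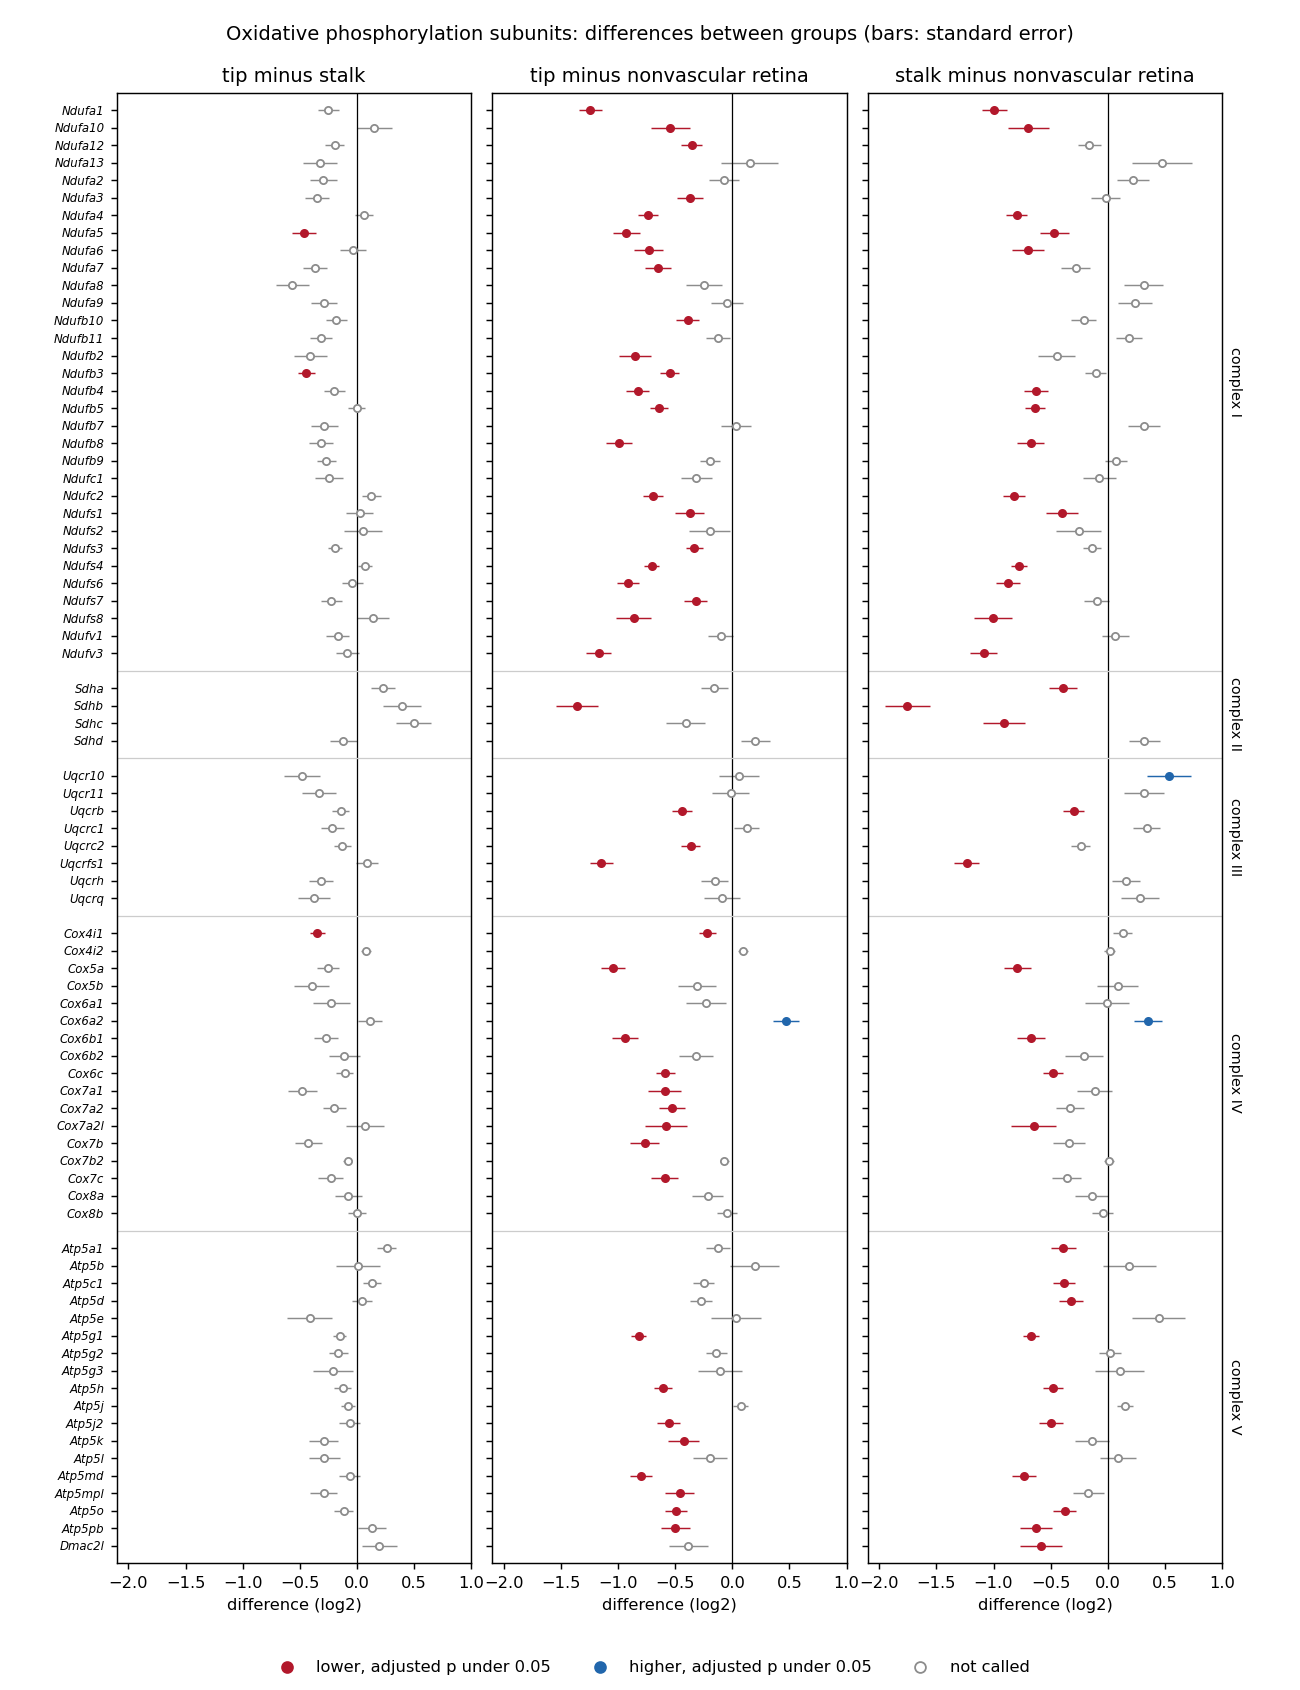
Difference in log2 units (horizontal axis) with its standard error for each of the 79 subunit genes, by complex, in 3 comparisons. Filled red points are lower and filled blue points higher at an adjusted p under 0.05, and open points are not called. Tip against stalk has 3 filled points, tip against nonvascular retina has 43 red and 1 blue, and stalk against nonvascular retina has 33 red and 2 blue.

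Complex I, the entry point for electrons from NADH, had 22 of 32 genes lower in tip and 14 of 32 lower in stalk than in nonvascular retina, and 0 higher in either. The lower shares were 68.8% in tip and 43.8% in stalk, against 16.8% and 18.6% of all genes. Of the 3201 brightest genes 26.4% were lower in tip and 30.1% in stalk. Ndufa1 stood at 0.80, 0.95 and 1.13 on tip arrays (lowest, median and highest) and at 1.51, 1.06, 1.18 and 1.05 on stalk arrays, against 2.20, 2.18 and 2.19 on nonvascular arrays. It fell by 1.24 ± 0.10 in tip (adjusted p = 9.72e-07) and by 0.99 ± 0.11 in stalk (adjusted p = 1.24e-05), and no array of either overlapped the nonvascular ones. Ndufs4, an accessory subunit whose loss is known to cause Leigh syndrome, stood at 0.15, 0.31 and 0.37 on tip arrays and at 0.27, 0.12, 0.18 and 0.33 on stalk arrays, against 1.1, 0.89 and 1.01 on nonvascular arrays. It fell by 0.70 ± 0.06 in tip (adjusted p = 3.18e-06) and by 0.78 ± 0.07 in stalk (adjusted p = 2.64e-06). For this gene tip and stalk overlapped, and both lay below nonvascular retina.

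Among the 6 members that encode catalytic core subunits of complex I, 4 were lower in tip and 2 in stalk. Of the 26 accessory subunits, 18 were lower in tip and 12 in stalk. In tip these shares were 66.7% of the core and 69.2% of the accessory subunits, against 26.4% of the 3201 brightest genes. In stalk they were 33.3% and 46.2%, against 30.1%, so the core share in stalk was close to that of the brightest genes. Ndufb3 and Ndufa5 fell in tip by 0.55 ± 0.08 (adjusted p = 0.000254) and 0.93 ± 0.12 (adjusted p = 5.53e-05) relative to nonvascular retina. In stalk Ndufa5 fell by 0.47 ± 0.13 (adjusted p = 0.0142), and Ndufb3 differed by −0.11 ± 0.09 (adjusted p = 0.446). Ndufa8 was not called in tip (−0.25 ± 0.16) or in stalk (0.31 ± 0.17, adjusted p = 0.201), although its 4 stalk arrays (0.44 to 0.66) lay above the nonvascular ones (0.19 to 0.27). Ndufb7, another accessory subunit, differed by 0.32 ± 0.14 in stalk (adjusted p = 0.122).

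Ndufv3, an accessory subunit of the NADH-binding module, rested on 1 of its 3 probes. The probe with the highest intensity stood at −0.87, −0.60 and −0.42 on tip arrays and at −0.50, −0.32, −0.73 and −0.66 on stalk arrays, against 0.57, 0.47 and 0.58 on nonvascular arrays. By this probe Ndufv3 fell by 1.17 ± 0.11 in tip (adjusted p = 3.75e-06) and by 1.09 ± 0.12 in stalk (adjusted p = 1.35e-05). Its other probes differed by 0.22 ± 0.12 and 0.21 ± 0.12 in tip and by 0.09 ± 0.13 and 0.12 ± 0.12 in stalk, none of them called. Of the 16 members with several probes, the probes had the same sign in 13 for tip and in 11 for stalk against nonvascular retina.

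Ndufa4 carries a complex I name, although its protein is now assigned to complex IV. By its name it was counted above with complex I and among the accessory subunits. It stood at 0.85, 0.94 and 1.02 on tip arrays and at 0.98, 0.84, 0.84 and 0.83 on stalk arrays, against 1.43, 1.94 and 1.64 on nonvascular arrays. It fell by 0.73 ± 0.09 in tip (adjusted p = 3.3e-05) and by 0.80 ± 0.10 in stalk (adjusted p = 2.99e-05), with no overlap between either group and nonvascular retina. Its spot was saturated on 2 of 3 nonvascular arrays and 1 of 6 tip arrays.

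Complex II, which is both a citric acid cycle enzyme and an electron entry point, had 1 of 4 genes lower in tip and 3 of 4 lower in stalk, and 0 higher in either. Counted by the brightest probe of each gene, 25% were lower in tip and 75% in stalk, against 16.8% and 18.6% of all genes. Sdhb stood at −3.47, −2.83 and −2.50 on tip arrays and at −3.49, −3.16, −3.39 and −3.03 on stalk arrays, against −1.30, −1.53 and −1.71 on nonvascular arrays. Its fall of 1.36 ± 0.18 in tip (adjusted p = 7.86e-05) and of 1.76 ± 0.20 in stalk (adjusted p = 1.65e-05, 3.38-fold) was larger in size than that of any other member in either comparison. Sdhc stood at 0.74, 0.39 and 0.36 on nonvascular arrays, above all the tip and stalk values given earlier. It fell in stalk by 0.91 ± 0.18 (adjusted p = 0.00177), and in tip it differed by −0.41 ± 0.17 (adjusted p = 0.0927).

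Sdha stood at −0.70, −0.46 and −0.26 on tip arrays and at −0.63, −0.59, −0.84 and −0.79 on stalk arrays, against −0.08, −0.56 and −0.34 on nonvascular arrays. It fell in stalk by 0.39 ± 0.12 (adjusted p = 0.0311) and differed in tip by −0.16 ± 0.12. With every probe fitted on its own, the other Sdha probe was called lower in tip (−0.30 ± 0.10, adjusted p = 0.0364). In stalk that probe was called lower too (−0.36 ± 0.11, adjusted p = 0.0212). The stalk call of Sdha was lost without nonvascular replicates 1 (adjusted p = 0.162) or 3 (0.0654) and without stalk replicates 3 (0.0789) or 4 (0.0709), within a range over the alternatives of 0.011 to 0.48. Sdhd stood at −2.09, −1.89 and −1.52 on tip arrays and at −1.48, −1.71, −1.99 and −1.83 on stalk arrays, against −2.18, −2.13 and −1.91 on nonvascular arrays. Its differences had the opposite sign, 0.20 ± 0.13 in tip (adjusted p = 0.283) and 0.32 ± 0.14 in stalk (adjusted p = 0.102), and neither was called. The stalk difference of Sdhd was called with brightness in the model (0.524, adjusted p = 0.0266). It was also called without stalk replicate 3 (0.399, adjusted p = 0.047) or without tip replicate 1 (0.319, adjusted p = 0.0496).

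Complex III had 3 of 8 genes lower in tip and 2 of 8 lower in stalk, with 1 higher in stalk. The lower share in tip was 37.5%, against 16.8% of all genes and 26.4% of the 3201 brightest genes. In stalk 25% were lower, against 18.6% of all genes and 30.1% of the brightest. The higher share in stalk was 12.5%, against 11.2% and 29.1%, so both stalk shares lay between the background shares. Uqcrfs1 stood at −1.22, −0.86 and −0.73 on tip arrays and at −0.88, −1.05, −1.09 and −0.96 on stalk arrays, against 0.38, 0.27 and 0.06 on nonvascular arrays. It fell by 1.15 ± 0.10 in tip (adjusted p = 2.42e-06) and by 1.24 ± 0.11 in stalk (adjusted p = 2.38e-06), and the vessel groups lay far below nonvascular retina without overlap. Uqcr10 stood at 0.54, 0.93 and 1.33 on tip arrays and at 1.69, 1.30, 1.40 and 1.24 on stalk arrays, against 0.72, 0.80 and 1.1 on nonvascular arrays. It rose in stalk by 0.54 ± 0.19 (adjusted p = 0.0495, 1.45-fold), a call kept in 12 of 27 alternatives and lost on leaving out any 1 stalk array, nonvascular replicates 1 or 2, or tip replicates 1 or 5 (adjusted p between 0.0513 and 0.168, range over the alternatives 0.00822 to 0.417), and differed in tip by 0.06 ± 0.18. Uqcrc1, a core protein of the complex, differed by 0.34 ± 0.12 in stalk (adjusted p = 0.0532) and by 0.12 ± 0.11 in tip. The stalk difference of Uqcrc1 was called without stalk replicate 4 (adjusted p = 0.0419) and without tip replicates 3 (0.0344) or 5 (0.0405), within a range of 0.0132 to 0.571. With every probe fitted on its own, the other Uqcrc1 probe had the opposite sign, −0.16 ± 0.11 in stalk and −0.20 ± 0.10 in tip, neither called. The median difference over the 8 genes was −0.12 in tip and 0.22 in stalk, and with the sample channel alone it was 0.012 in tip.

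Complex IV, cytochrome c oxidase, had 9 of 17 genes lower and 1 higher in tip, and 4 lower and 1 higher in stalk. The lower shares were 52.9% in tip and 23.5% in stalk, against 16.8% and 18.6% of all genes. Of the 3201 brightest genes 26.4% were lower in tip and 30.1% in stalk, so the stalk share lay between the background shares. The higher share was 5.88% in each, against 11.1% of all genes in tip and 11.2% in stalk. Cox5a, a nuclear-encoded structural subunit, stood at −1.18, −0.83 and −0.68 on tip arrays and at −0.61, −0.78, −0.73 and −0.52 on stalk arrays, against 0.03, 0.23 and 0.13 on nonvascular arrays. It fell by 1.04 ± 0.11 in tip (adjusted p = 8e-06) and by 0.79 ± 0.12 in stalk (adjusted p = 0.000151), with no overlap. Cox6b1, the broadly expressed form of the subunit that links the dimer, stood at 0.14, 0.45 and 0.56 on tip arrays and at 0.89, 0.48, 0.77 and 0.63 on stalk arrays, against 1.22, 1.28 and 1.57 on nonvascular arrays. It fell by 0.94 ± 0.11 in tip (adjusted p = 3.35e-05) and by 0.67 ± 0.12 in stalk (adjusted p = 0.000932). Its testis form Cox6b2 was not called in tip (−0.32 ± 0.15, adjusted p = 0.151) or in stalk (−0.21 ± 0.16, adjusted p = 0.401).

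Several complex IV subunits exist in a ubiquitous form and a form known from heart and muscle, and both forms are on the array. Cox6a2 stood at −2.31, −2.05 and −1.79 on tip arrays and at −2.13, −2.01, −2.17 and −2.34 on stalk arrays, against −2.39, −2.57 and −2.59 on nonvascular arrays. It rose by 0.47 ± 0.11 in tip (adjusted p = 0.00691) and by 0.36 ± 0.12 in stalk (adjusted p = 0.0448), and all vessel arrays lay above all nonvascular arrays. The stalk call was lost on leaving out stalk replicates 1, 2 or 3, nonvascular replicates 2 or 3, or tip replicates 5 or 6, with adjusted p between 0.0538 and 0.133, within a range over the alternatives of 0.00164 to 0.24. The tip call was lost with median centring (0.332, adjusted p = 0.0511), within a range over the alternatives of 0.00186 to 0.0823. Its ubiquitous partner Cox6a1 was saturated on all 3 nonvascular arrays and 1 of 6 tip arrays, so no fold is given, and it was not called in tip (adjusted p = 0.403) or in stalk (adjusted p = 0.99).

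Cox7a1 stood at −0.62, −0.73 and −0.69 on nonvascular arrays, above all tip arrays. It fell in tip by 0.59 ± 0.14 (adjusted p = 0.00614) and differed in stalk by −0.12 ± 0.15. The ubiquitous Cox7a2 stood at 1.17, 1.37 and 1.61 on tip arrays and at 1.69, 1.63, 1.75 and 1.26 on stalk arrays, against 1.86, 1.91 and 1.97 on nonvascular arrays. It fell in tip by 0.53 ± 0.11 (adjusted p = 0.00313) and differed in stalk by −0.33 ± 0.12 (adjusted p = 0.0594), called without stalk replicate 3 (adjusted p = 0.0417) or tip replicate 6 (0.0467). With the sample channel alone Cox7a2 lost its tip call (−0.259, adjusted p = 0.125, range 0.000751 to 0.125). Cox7a2l, which helps to join complexes III and IV into supercomplexes, fell by 0.58 ± 0.18 in tip (adjusted p = 0.0292) and by 0.65 ± 0.20 in stalk (adjusted p = 0.0234). Without nonvascular replicate 1 both calls of Cox7a2l were lost (adjusted p = 0.145 in tip and 0.11 in stalk), and the tip call was also lost without nonvascular replicate 2 or tip replicates 1, 5 or 6 (adjusted p between 0.0517 and 0.0545).

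Cox4i1 fell in tip by 0.22 ± 0.07 (adjusted p = 0.0439) and differed in stalk by 0.13 ± 0.08 (adjusted p = 0.271), beside nonvascular arrays at −0.33, −0.29 and −0.29. The tip call of Cox4i1 was kept in 10 of 27 alternatives. It was lost without any 1 of the nonvascular arrays (adjusted p = 0.0873, 0.122 and 0.118), stalk replicates 2, 3 or 4 or tip replicates 2, 3 or 5 (adjusted p between 0.0523 and 0.0797), within a range of 0.0161 to 0.717. Cox4i2, its oxygen-responsive partner known from lung, was among the dim members and differed by 0.09 ± 0.05 in tip and by 0.02 ± 0.05 in stalk, neither called. Cox7b fell in tip by 0.77 ± 0.13 (adjusted p = 0.000549) and differed in stalk by −0.34 ± 0.14 (adjusted p = 0.0888), called without nonvascular replicate 3 (−0.516, adjusted p = 0.00808), whose 1.42 was the lowest nonvascular value beside 2.13 and 1.74. Cox7b2 and Cox8b were also dim, and none of their differences was called. Cox8a, the ubiquitous subunit 8, differed by −0.22 ± 0.13 in tip and by −0.14 ± 0.14 in stalk, neither called. The Cox8a spot was saturated on 2 of 3 nonvascular arrays and 1 of 6 tip arrays, and its tip difference was called with median centring (−0.363, adjusted p = 0.025) and with the sample channel alone (−0.397, adjusted p = 0.00838), within a range of 0.00838 to 0.621.

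Complex V, the ATP synthase, had 8 of 18 genes lower in tip and 10 of 18 in stalk, and 0 higher. In percent, 44.4% were lower in tip and 55.6% in stalk. Of all genes 16.8% and 18.6% were lower, and of the brightest 10% of genes 26.4% and 30.1%. Atp5g1 is one of the genes that encode the same mature subunit c of the rotor ring. It stood at −0.70, −0.64 and −0.49 on tip arrays and at −0.36, −0.43, −0.53 and −0.58 on stalk arrays, against 0.15, 0.18 and 0.26 on nonvascular arrays. It fell by 0.82 ± 0.06 in tip (adjusted p = 6.27e-07) and by 0.67 ± 0.07 in stalk (adjusted p = 6.5e-06). The smallest adjusted p of all members in tip was that of Atp5g1, and its tip and stalk arrays were all below 0 whereas its nonvascular arrays were all above. Atp5md, a small subunit of the membrane part, stood at −0.06, 0.24 and 0.41 on tip arrays and at 0.28, 0.25, 0.39 and 0.13 on stalk arrays, against 1.11, 0.85 and 1.04 on nonvascular arrays. It fell by 0.80 ± 0.10 in tip (adjusted p = 3.32e-05) and by 0.74 ± 0.10 in stalk (adjusted p = 0.000122).

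The ATP synthase has a catalytic F1 part outside the membrane. Of its 5 genes, each by its brightest probe, 0 were called in tip and 3 were lower in stalk. Of the 13 other genes 8 were lower in tip and 7 in stalk, and the difference between these parts was not tested. Atp5a1 stood at −0.44, −0.14 and −0.09 on 5 tip arrays and at −0.37, −0.60, −0.49 and −0.39 on stalk arrays, against 0.02 and −0.16 on 2 nonvascular arrays. It fell in stalk by 0.39 ± 0.11 (adjusted p = 0.0172) and differed in tip by −0.13 ± 0.10. With every probe fitted on its own, the other Atp5a1 probe was called lower in tip (−0.34 ± 0.08, adjusted p = 0.00506). In stalk that probe was called lower too (−0.28 ± 0.08, adjusted p = 0.0213). The gamma subunit Atp5c1 fell in stalk by 0.38 ± 0.10 (adjusted p = 0.00841) and differed in tip by −0.25 ± 0.09 (adjusted p = 0.0536). The delta subunit Atp5d, named after its values were seen, fell in stalk by 0.32 ± 0.10 (adjusted p = 0.036) and differed in tip by −0.27 ± 0.10 (adjusted p = 0.0541). The differences of Atp5a1 and Atp5c1 between tip and stalk, 0.26 ± 0.08 and 0.13 ± 0.08, were not called. Atp5e differed by 0.03 ± 0.22 in tip and by 0.44 ± 0.24 in stalk, and Atp5j, a stalk component, by 0.07 ± 0.06 and 0.15 ± 0.07, none called. The beta subunit Atp5b was saturated on all 3 nonvascular arrays and 3 of 6 tip arrays, so no fold is given.

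The counts against nonvascular retina varied less with single arrays. Without nonvascular replicate 3, the array with high glial markers, 37 genes were lower in tip and 29 in stalk, and over all arrays left out in turn the counts were 36 to 44 in tip and 26 to 36 in stalk. The genes higher in stalk were 0 to 3, with 0 left without stalk replicate 1, stalk replicate 2 or nonvascular replicate 2, 1 without stalk replicate 3, nonvascular replicate 1, tip replicate 5 or tip replicate 6, and 3 without nonvascular replicate 3. Markers of other cells moved with both comparisons: 9 of 10 ganglion cell markers were lower in tip and 8 in stalk, 6 and 5 of 14 photoreceptor markers and 4 and 3 of 7 microglial markers were lower, 9 and 8 of 10 endothelial markers were higher, and 12 and 13 of 14 pericyte markers were higher. Of 8 markers of astrocytes and Mueller glia 4 were higher in each, of 3 erythroid markers 2 were higher in tip and 1 in stalk, and of 12 amacrine, horizontal and bipolar markers 3 were lower and 1 higher in each. The part of cell composition in the members' differences was not tested.

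Other genes of energy metabolism were counted for reference, from lists chosen with results of these data known. Against nonvascular retina, 16.8% of all genes were lower and 11.1% higher in tip, and 18.6% and 11.2% in stalk. In the brightest 10% of genes these shares were 26.4% and 28.8% in tip, and 30.1% and 29.1% in stalk. Between tip and stalk 1.32% of all genes were lower in tip and 1.47% higher. Of 13 partners of the respiratory chain outside the name pattern, 10 were lower in tip and 11 in stalk than in nonvascular retina, and 0 higher. The outer membrane channel gene Vdac3 fell by 1.41 ± 0.10 in tip (adjusted p = 4.89e-07) and by 1.74 ± 0.11 in stalk (adjusted p = 1.6e-07). Ndufab1, the acyl carrier protein of complex I, fell by 0.82 ± 0.09 in tip (adjusted p = 1.49e-05) and by 0.70 ± 0.10 in stalk (adjusted p = 0.000104). Atpif1, the inhibitor of the ATP synthase, fell by 1.20 ± 0.14 in tip (adjusted p = 2.25e-05). None of the 13 was called between tip and stalk.

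Of 35 assembly factors 13 were lower and 2 higher in tip, and 14 lower and 4 higher in stalk, among them the complex I factor Ndufaf5 (−1.05 ± 0.14 in tip and −1.35 ± 0.15 in stalk) and the complex III factor Ttc19 (−1.26 ± 0.18 in tip and −1.52 ± 0.19 in stalk). Of 76 mitochondrial ribosomal proteins 20 were lower in each comparison, and 6 were higher in tip and 10 in stalk. Their lower share was 26.3% in each, against 16.8% of all genes and 26.4% of the brightest 10% in tip. In stalk these background shares were 18.6% and 30.1%. Mrps28 rose by 0.89 ± 0.08 in tip (adjusted p = 2.5e-06) and by 0.89 ± 0.09 in stalk (adjusted p = 4.76e-06), whereas Mrpl50 fell by 0.69 ± 0.08 in tip (adjusted p = 3.61e-05). Of 22 subunits of the vacuolar proton pump, a non-mitochondrial relative of the ATP synthase, 12 were lower in each comparison and 2 higher, among them Atp6v1h (−1.92 ± 0.13 in tip and −2.32 ± 0.14 in stalk). The share of lower genes in this list was 54.5% in each comparison, beside 54.4% of the respiratory subunits in tip and 41.8% in stalk.

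Glycolysis genes differed between tip and stalk in the direction opposite to most subunits. Of 20 genes 6 were higher in tip than in stalk and 0 lower, with a median difference of 0.35. The mean over the list was −0.83 to −0.60 on tip arrays, −1.09 to −1.0 on stalk arrays and −0.87 to −0.54 on nonvascular arrays, so all tip arrays lay above all stalk arrays. Triosephosphate isomerase Tpi1 rose by 0.89 ± 0.10 (adjusted p = 0.000617), phosphoglycerate kinase Pgk1 by 0.73 ± 0.11 (adjusted p = 0.00568) and the phosphofructokinase Pfkl by 0.87 ± 0.15 (adjusted p = 0.0102). Against nonvascular retina 5 were lower and 4 higher in tip, and 12 lower and 3 higher in stalk. The neuronal enolase Eno2 fell by 2.04 ± 0.15 in tip (adjusted p = 3.8e-07) and by 2.77 ± 0.16 in stalk (adjusted p = 5.98e-08).

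Of 15 regulators of mitochondrial genes, Ppargc1b, a coactivator of mitochondrial biogenesis, fell in tip relative to stalk by 0.48 ± 0.07 (adjusted p = 0.00347) and rose in stalk relative to nonvascular retina by 0.54 ± 0.08 (adjusted p = 0.000269). Polg, the mitochondrial DNA polymerase, rose in tip by 0.57 ± 0.14 relative to stalk (adjusted p = 0.0474) and by 1.00 ± 0.15 relative to nonvascular retina (adjusted p = 0.000217). Gabpa, the DNA-binding subunit of GABP, rose by 0.73 ± 0.23 in tip (adjusted p = 0.0307) and by 0.89 ± 0.25 in stalk (adjusted p = 0.015) relative to nonvascular retina. Nrf1 differed between tip and stalk by 0.26 (adjusted p = 0.115) and was not called.

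Of 14 hypoxia-responsive mitochondrial regulators 1 was higher in tip than in stalk, Hif1a (0.49 ± 0.12, adjusted p = 0.0443), which encodes the oxygen-regulated transcription factor subunit, and 6 were lower in each comparison with nonvascular retina. Of 18 genes of the tricarboxylic acid cycle and pyruvate dehydrogenase 0 were called between tip and stalk, and 4 were lower and 2 higher in tip, and 6 lower and 1 higher in stalk, than in nonvascular retina. Their lower shares were 22.2% in tip and 33.3% in stalk, against 16.8% and 18.6% of all genes. Citrate synthase Cs fell by 0.53 ± 0.10 in tip (adjusted p = 0.000836) and by 0.57 ± 0.10 in stalk (adjusted p = 0.000785). Pdha1 of pyruvate dehydrogenase rose in tip by 2.32 ± 0.31 relative to nonvascular retina (adjusted p = 7.48e-05). Of 11 mitochondrial antioxidants and uncouplers 2 were lower and 1 higher in tip, and 4 lower and 2 higher in stalk, with the peroxiredoxin Prdx5 at −0.75 ± 0.09 in tip and −0.94 ± 0.10 in stalk. Nnt rose, by 0.81 ± 0.18 in tip (adjusted p = 0.00414) and by 0.78 ± 0.20 in stalk (adjusted p = 0.00842). The lower shares of this list were 18.2% in tip and 36.4% in stalk, against 16.8% and 18.6% of all genes.

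**Figure D4:**
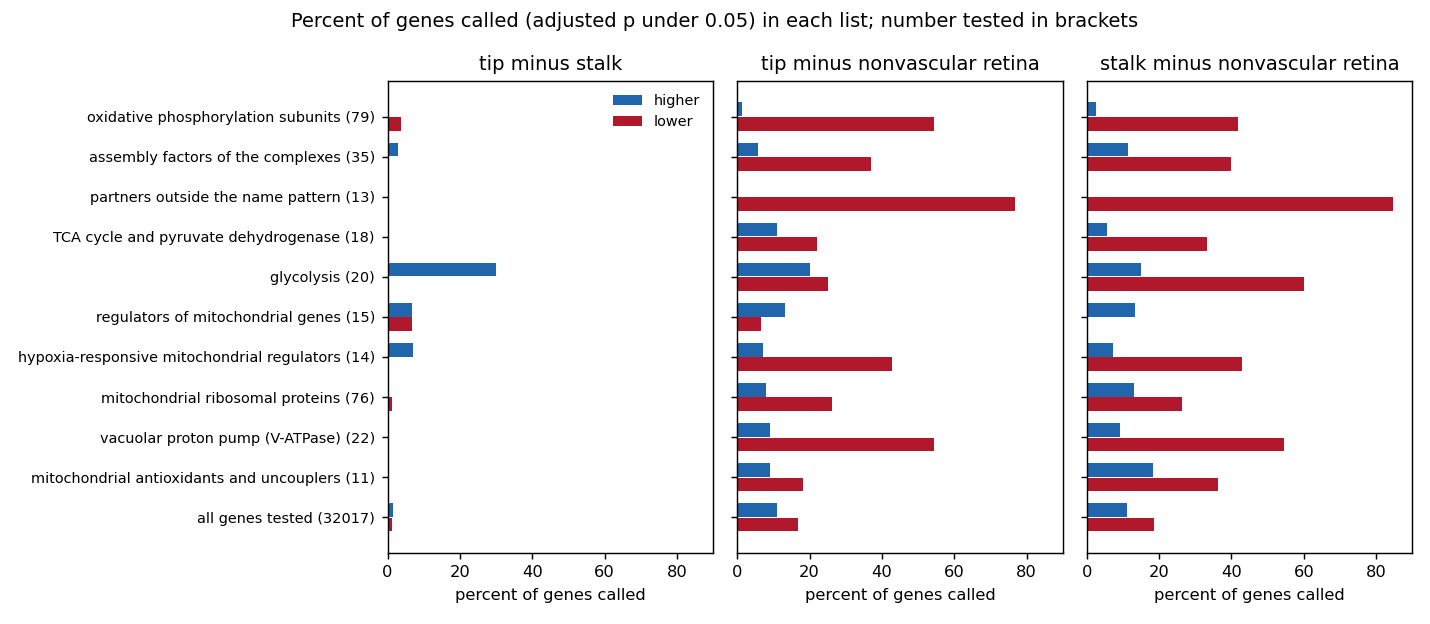
Percent of the tested genes of each list called higher (blue) or lower (red) at an adjusted p under 0.05 (horizontal axis) in 3 comparisons, with the number of genes tested in brackets and all genes tested at the bottom. The subunits reach 54.4% lower in tip and 41.8% lower in stalk against nonvascular retina, beside 16.8% and 18.6% of all genes, and glycolysis has 30% higher in tip than in stalk.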

How the data were processed

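RNA of 13 samples was measured on 2-colour Agilent arrays, grouped by their titles. The authors read the arrays with Agilent Feature Extraction 8.5.1.1, per the submitters' processing notes. The deposited mean and local background intensity of each spot and channel, not normalized, were the starting point. Those files also give, per the file headers, a log10 ratio of processed red to processed green signal, and the deposited value table holds linear ratios of the same values.

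Background was corrected by normexp (offset 50) and arrays normalized by loess in limma 3.58.1 (R 4.3.3, data.table package 1.17.8), with control spots at weight 0 and outlier spots set to missing. Repeated spots were averaged and each gene was represented by its brightest probe. Probes were named through a RefSeq gene table (22072 through their own accession, 8 through another accession, 1211 through the symbol in their description) or kept the files' name (16994). Genes well above background on at least 3 of 13 arrays, 32017 of 33542, entered 1 limma model with 3 group means. In each comparison the Benjamini-Hochberg adjustment ran over all of them. All results are on the log2 scale, computed here from the deposited intensities. Errors on differences are limma's standard errors and errors on group values are SDs. The number of arrays limits the precision.

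Members, gene lists and tests were chosen with earlier results of these data known. Named members were the isoform genes of complex IV with Ndufa4, the 4 Sdh genes, the 6 with the smallest p per comparison and direction, and the largest absolute difference of each complex, and in other lists up to 3 called genes with the smallest p; not all are named, and Ndufa3, Ndufa9, Ndufa13, Ndufb2, Uqcrh, Atp5d and Nrf1 are named besides. No fold is given for genes saturated on all arrays of a group. The steps were tested on simulated data. Alternatives were other signals and normalizations, filters, blocks and left-out arrays, and, chosen after seeing the data, every probe fitted on its own and saturated spots left out.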

Additional observations from a re-analysis of the deposited data

Results flagged for a closer look

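In 6 of 72 groups of arrays searched, over 36 named genes in tip and in stalk, 1 array stood far from the others of its group, and chance alone gives about 1 such array in 20 groups. Tip replicate 1 accounted for 3 of them: Atp5b was at −0.8 there, against −0.02 to 0.27 on the other tip arrays, Cox6a1 at −0.87, against −0.21 to 0.02, and Cox8a at 0.11, against 0.56 to 0.83. On that array 10 members were saturated in the sample channel, against 0 to 2 on the other tip arrays. On nonvascular replicates 1, 2 and 3 there were 7, 3 and 7 saturated members, and on stalk arrays 0 or 1. With saturated spots left out, 3 members were called lower in tip than in stalk and 43 lower in tip than in nonvascular retina. Sdhc was at −0.51 on tip replicate 6, against 0.07 to 0.34 on the other tip arrays. Cox7a1 was at −1.61 on tip replicate 5, the array scanned on another day, against −1.28 to −1.12. Ndufa4 was at 0.98 on stalk replicate 1, against 0.83 to 0.84 on the other stalk arrays. Nonvascular retina, with 3 arrays, could not be searched in this way.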

How the results depend on the processing

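Results were recomputed under 27 alternatives, besides the values above. Tip minus stalk had 0 to 2 members higher and 1 to 5 lower over the arrays left out in turn. It had 1 lower with the Feature Extraction log ratios and with the deposited ratios, and 0 with array brightness in the model. Its median difference was −0.363 with median centring and −0.196 to −0.125 without single arrays. Tip minus nonvascular retina had 2 members higher from the red channel alone, 0 with median centring and 1 throughout without single arrays, 32 to 54 lower (36 to 44 without single arrays), and a median of −0.566 with median centring (−0.384 to −0.348 without single arrays). Stalk minus nonvascular retina had 1 higher with the deposited ratios, the Feature Extraction log ratios, median centring, no filter on dim probes, array brightness, a scan day block and every probe fitted on its own, 8 with the red channel alone, 4 with only the groups compared and 0 to 3 without single arrays. It had 21 lower with median centring (26 to 36 without single arrays), and a median of −0.106 with the red channel alone, where all genes had 0.062 (−0.28 to −0.198 without single arrays). The cause of these changes was not tested. Of 81 named differences, 33 were called, 22 of them in every alternative, 11 lost their call in at least 1, 0 turned sign while called, and 16 not called were called in at least 1. These counts over the 27 alternatives leave out the fit of every probe on its own. In that fit the other probes of Ndufv3 had the opposite sign against nonvascular retina and were not called. Same-numbered samples do not deviate together: over 10 pairs the correlation was −0.144 to 0.083, so the numbers were not taken as pairs. With the replicate number as a block, tip minus nonvascular retina had 0 members higher (Cox6a2 0.459, adjusted p = 0.0823) and 36 lower, tip minus stalk 4 lower and stalk minus nonvascular retina 30 lower. Saturation limits the brightest members and signal near background limits Cox4i2, Cox7b2 and Cox8b.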
